A study of Mus musculus with 14 samples.

Results

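Matrix metalloproteinases and their inhibitors were examined as 10 genes in mature colonic lamina propria macrophages. The genes were taken by name from the 24982 genes of the deposited count table: the metalloproteinases MMP2, MMP9, MMP12, MMP13, MMP14 and MMP19, the metalloproteinase-related protease ADAMDEC1, and the inhibitors TIMP1, TIMP2 and TIMP3. All 10 passed the filter on low counts and were among the 13136 genes tested. The macrophages had been sorted by flow cytometry as live CD45+, Ly6G-, CD103-, CD64+, CD11b+, MHCII+ and Ly6C- cells from the colon and cecum, and each library came from the RNA of a single C57BL/6 mouse that was 5 weeks old. Every mouse carried Cdcs1, a locus that makes mice susceptible to colitis when cytokine signaling is defective. WT mice had Cdcs1 alone, IL10RAKO mice were also Il10ra -/- and so lacked the alpha chain of the interleukin-10 receptor, and DKO mice were both Il10ra -/- and Ccr2 -/- and so also lacked the chemokine receptor CCR2. The deletions were germline, so that they affected every cell of the mouse and not macrophages alone. Tests compared 4 WT, 4 IL10RAKO and 4 DKO mice. A WT library from mouse 11, which the authors' own normalized table leaves out with no reason given, and a library from a CCR2KO mouse (Cdcs1, Ccr2 -/-), which has no replicate, were kept outside the tests and are given beside them. The authors reported spontaneous colitis in Il10ra -/- mice with Cdcs1 around this age. It was less severe when Ccr2 was also lost, and wild-type mice had no histologic signs of it. Genotype and inflammation of the colon therefore cannot be told apart in comparisons with WT. The question was how the proteases and inhibitors of these macrophages differ between the genotypes.

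Matrix metalloproteinases are zinc-dependent endopeptidases that cut collagens, elastin, basement membrane proteins, cytokines and chemokines. They are made as inactive proenzymes, and TIMPs (tissue inhibitors of metalloproteinases) bind the active site of the activated enzyme. TIMP2 has a further role, since a complex of TIMP2 with the membrane-anchored MMP14 brings proMMP2 to the cell surface, where a free MMP14 molecule activates it. In the gut these genes are shared between cell types: macrophages are a known source of MMP12, macrophages and fibroblasts have both been described as sources of ADAMDEC1, neutrophils are known for MMP8, MMP9 and MMP25, and fibroblasts and other stromal cells for MMP2, MMP14 and TIMPs.

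The genes are placed here by GENCODE vM21 on GRCm38 (mm10), the build the authors aligned to. The collagenase and elastase genes MMP13 (chr9:7272514-7283331) and MMP12 (chr9:7344381-7369499) lie near each other on the plus strand. MMP14 (chr14:54431612-54445364, plus strand) and ADAMDEC1 (chr14:68563380-68582095, minus strand) share a chromosome, as do MMP19 (chr10:128790910-128800824) and TIMP3 (chr10:86300372-86349506), both on the plus strand. MMP2 is at chr8:92827291-92853420, MMP9 at chr2:164940780-164955850 and TIMP1 at chrX:20870166-20874735, all on the plus strand, and TIMP2 is at chr11:118301069-118355740 on the minus strand.

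Between 13085287 and 21216468 reads per library were counted on genes in the 12 libraries tested, and WT mouse 11 had 12153000. Levels are given as CPM, reads of a gene per 1000000 counted reads of its library after TMM scaling, a correction for RNA composition between libraries, and 3 reads correspond to between 0.124 and 0.211 CPM in the 12 libraries. The targeted genes bore out the genotype labels. IL10RA was at 217 to 380 CPM in WT, 4.89 to 11.2 CPM in IL10RAKO and 3.41 to 7.59 CPM in DKO, and CCR2 was at 514 to 702 CPM in WT and 3.92 to 6.68 CPM in DKO. Macrophage markers (CSF1R, CD68, C1QA and 7 others) summed to 9350 to 12600 CPM in WT, 7500 to 12900 CPM in IL10RAKO and 6950 to 11800 CPM in DKO, and none of the 10 was at 0 in a library. WT mouse 10 stood apart in epithelial markers, at 1210 CPM against 51.9 to 238 CPM in the other 11 tested libraries, and WT mouse 11 had 3060 CPM. The transcript of LY6C2, part of the antigen gated against, was at a mean of 6.5 CPM in WT, 109 CPM in IL10RAKO and 81.8 CPM in DKO. Of 5 dendritic cell markers, 3 were higher in IL10RAKO and 2 in DKO, and their sum, mostly CCR7, was 215 to 1030 CPM in WT, 1420 to 1860 CPM in IL10RAKO and 1010 to 1770 CPM in DKO.

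The sequences before the transcription starts are shown for MMP14 and MMP12, the 2 proteases that were higher in DKO, and for MMP13, which lies near MMP12 on chromosome 9 and did not pass in any comparison. RefSeq promoters of GRCm38.p6 were at hand for 6 of the 10 genes (MMP12, MMP13, MMP14 and the 3 TIMPs), with 2 starts for MMP12. Each line gives the 100 bases that end just before the start, on the plus strand, which is the strand of all 3 genes, and GENCODE vM21 places no exon in them. The window of MMP12 belongs to its second start and lies between exons of the annotated gene. Capitals mark matches to the motifs searched on both strands: AP-1 (TGANTCA), the box bound by FOS and JUN family factors, the TATA box (TATAAA) and the GC box (GGGCGG).
MMP14, chr14:54431498-54431597: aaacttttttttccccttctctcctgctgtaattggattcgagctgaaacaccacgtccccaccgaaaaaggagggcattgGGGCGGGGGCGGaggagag
MMP12, chr9:7347274-7347373: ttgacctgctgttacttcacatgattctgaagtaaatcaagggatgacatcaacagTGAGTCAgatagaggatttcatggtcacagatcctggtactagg
MMP13, chr9:7272414-7272513: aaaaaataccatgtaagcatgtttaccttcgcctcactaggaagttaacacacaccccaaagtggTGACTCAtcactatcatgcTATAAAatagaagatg
An AP-1 match lay at positions -44 to -38 of the second MMP12 start and -35 to -29 of MMP13, counted back from the start. The 250 upstream bases of the first MMP12 start held no AP-1 match. Of all 32851 promoters, 6.75% hold an AP-1 match in their 250 upstream bases. MMP13 also had a TATA box at -16 to -11, as do 12.4% of promoters anywhere in that window. MMP14 had no AP-1 match in its 250 bases and had 2 adjacent GC boxes at -19 to -8, and each TIMP had 1 GC box, a motif found in 32.7% of promoters. The sites of TIMP1, TIMP2 and TIMP3 were at -8 to -3, -37 to -32 and -15 to -10. Of the last 100 bases before the start, GENCODE vM21 places 0 of TIMP1, 95 of TIMP2 and 40 of TIMP3 in exons of the gene. Motifs of STAT factors (TTCNNNGAA), found in 7.02% of promoters, were in none of the 7 windows, the interferon-stimulated response element (2.98% of promoters) was in that of MMP13 alone at -146 to -137, and the PU.1 core (GAGGAA, 23.3% of promoters) was in that of the first MMP12 start alone. A match is a description of letters and says nothing of whether a factor was bound.

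Markers of fibroblasts, which are a known source of TIMPs, differed between the genotypes. Fibroblast markers (COL1A1, COL1A2, COL3A1, COL5A2, COL6A3, DCN, LUM, DPT, PDGFRA and FBLN1) summed to 339, 643, 339 and 621 CPM in WT mice 4, 5, 10 and 13, to between 17 and 58.6 CPM in IL10RAKO and to between 17.6 and 70.4 CPM in DKO. All 10 markers were lower in IL10RAKO than in WT and 9 of 10 were lower in DKO, and every library had reads of COL1A1, COL3A1 and decorin (DCN). COL6A3 in WT mouse 4, COL5A2 in IL10RAKO mouse 7 and FBLN1 in DKO mouse 12 were the only markers at 0 in the 12 libraries. In bulk RNA of sorted cells, fewer cells of a type and less RNA per cell cannot be told apart. Markers of smooth muscle and pericytes were lower as well (5 of 6 tested in IL10RAKO, 6 of 6 in DKO), as were 3 of 6 endothelial markers in each knockout.

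Relative to WT, 1 of the 10 genes was higher and 4 were lower in IL10RAKO, and 2 were higher and 2 were lower in DKO. Calls were made at an adjusted p under 0.05 in edgeR's quasi-likelihood test with Benjamini-Hochberg adjustment over all 13136 genes. The same threshold called 8.70% of all tested genes higher and 7.10% lower in IL10RAKO, and 9.23% higher and 9.22% lower in DKO. MMP14 rose and TIMP2 and TIMP3 fell in both knockouts, MMP12 passed in DKO and not in IL10RAKO, and MMP9 and ADAMDEC1 passed in IL10RAKO and not in DKO. These genes were not shown to differ between the knockouts, since none of the 10 passed between DKO and IL10RAKO, where 0.0457% of all genes did. Scaling by library totals in place of TMM moved the median log2 fold change of all genes from -0.07 to -0.38 in IL10RAKO and from -0.06 to -0.32 in DKO. The calls over all genes were then 651 higher and 2084 lower in IL10RAKO, in place of 1143 and 933, and 748 higher and 2140 lower in DKO, in place of 1213 and 1211. The calls for MMP12, MMP14, TIMP2 and TIMP3 were the same with either scaling. Without WT mouse 10 the 10 genes again gave 1 higher and 4 lower in IL10RAKO and 2 higher and 2 lower in DKO, and with WT mouse 11 added they gave 2 higher and 2 lower in each. The median log2 fold change of the 10 genes was -0.56 in IL10RAKO and -0.40 in DKO, against -0.07 and -0.06 over all tested genes. The 2 comparisons with WT share the same 4 WT mice and are given side by side.

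**Figure D1:**
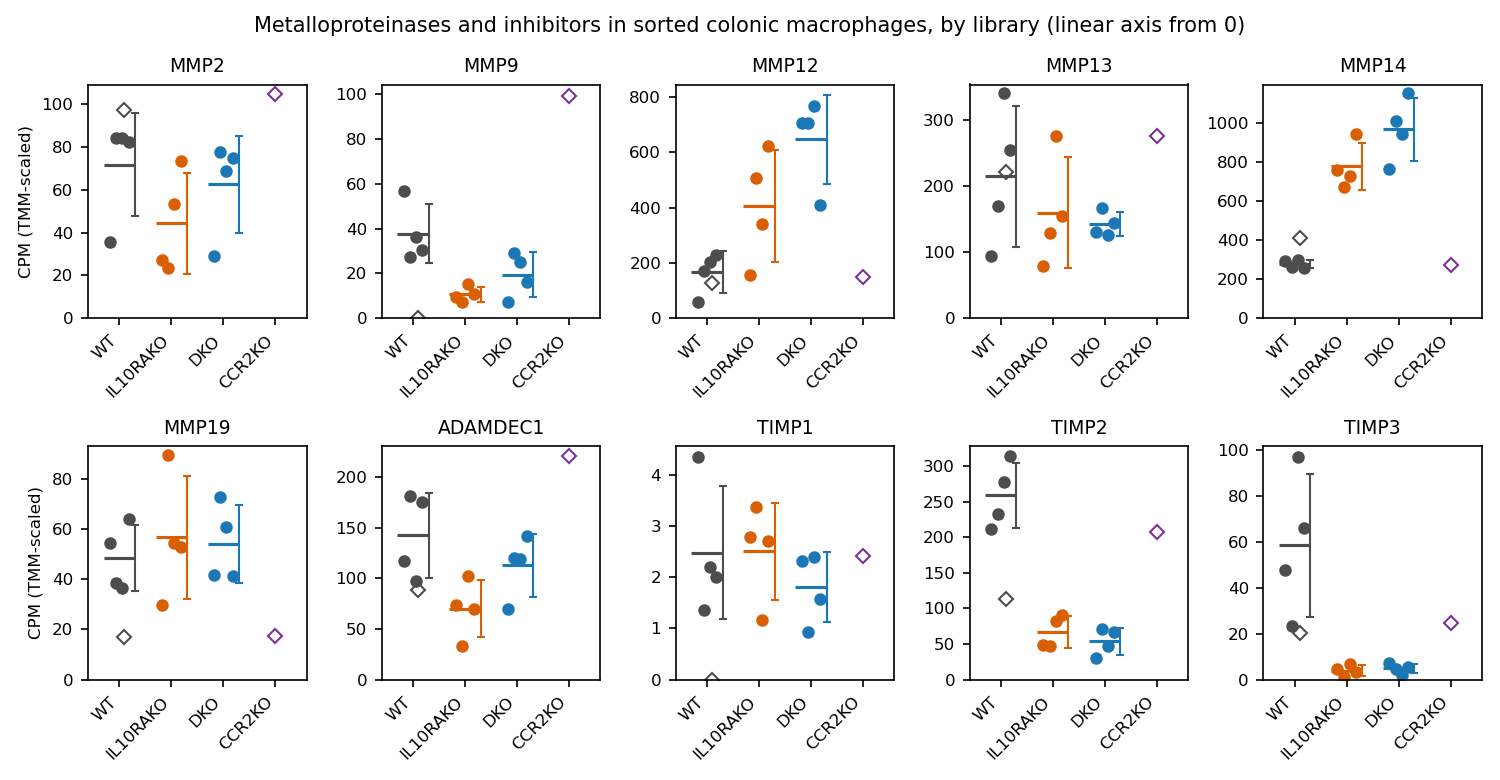
CPM (TMM-scaled, linear axes from 0) of the 10 genes in each library, by genotype. Filled circles are the 12 tested libraries with the mean (line) and SD (bar, n = 4 mice), and open diamonds are WT mouse 11 and the CCR2KO mouse, outside the tests. MMP14 was at 256 to 298 CPM in the tested WT libraries, 411 CPM in WT mouse 11 and 671 CPM or more in both knockouts. TIMP2 and TIMP3 were lower in every knockout library than in any tested WT library.

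MMP14, the membrane-type protease that cuts fibrillar collagen and activates proMMP2, had the smallest standard error of the 10 genes and the smallest adjusted p-values. It was at 293, 263, 298 and 256 CPM in WT mice 4, 5, 10 and 13. It was at 759, 671, 728 and 944 CPM in IL10RAKO mice 1, 2, 7 and 8, and at 761, 1010, 940 and 1150 CPM in DKO mice 3, 9, 12 and 14. Every knockout library was above every WT library, and the DKO and IL10RAKO libraries overlapped. Fitted levels were 2.79-fold higher in IL10RAKO than in WT (log2 fold change 1.48, SE 0.163, edgeR adjusted p = 3.06e-05) and 3.48-fold higher in DKO (log2 fold change 1.80, SE 0.164, edgeR adjusted p = 4.8e-06). DKO exceeded IL10RAKO by 0.32 on the log2 scale, with a 95% interval of -0.02 to 0.66. WT mouse 11 was at 411 CPM, above the 4 tested WT mice, and the CCR2KO mouse was at 270 CPM, within their range. Every knockout library had more MMP14 and less of the fibroblast markers than any tested WT library. The dendritic cell marker sum was 1030, 716, 215 and 277 CPM in WT mice 4, 5, 10 and 13. It was 1420 to 1860 CPM in IL10RAKO, and 1770, 1770, 1120 and 1010 CPM in DKO mice 3, 9, 12 and 14. The part of dendritic cell RNA in the MMP14 and MMP12 levels was not tested.

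MMP12, the macrophage elastase that cuts elastin, varied more among mice. It was at 57.8, 172, 205 and 230 CPM in WT and at 155, 507, 342 and 623 CPM in IL10RAKO. The DKO mice had 707, 706, 767 and 409 CPM. All 4 DKO libraries were above all 4 WT libraries, whereas IL10RAKO mouse 1, at 155 CPM, lay within the WT range and the other 3 IL10RAKO mice lay above it. MMP12 was 3.90-fold higher in DKO than in WT (log2 fold change 1.96, SE 0.43, edgeR adjusted p = 0.00551). In IL10RAKO the log2 fold change was 1.29 (SE 0.422) with an edgeR adjusted p of 0.0513, and without IL10RAKO mouse 1 it was 1.57 with an adjusted p of 0.0154. DESeq2 gave an adjusted p of 0.0435 for the same comparison. The difference between DKO and IL10RAKO was 0.67 on the log2 scale with an interval of -0.22 to 1.56, so that MMP12 was not shown to differ between the knockouts. The CCR2KO mouse, at 148 CPM, and WT mouse 11, at 128 CPM, were within the WT range.

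TIMP2, an inhibitor of most metalloproteinases and the partner of MMP14 in proMMP2 activation, was the most abundant inhibitor. It was at 212, 232, 278 and 314 CPM in WT, at 49.3, 47.1, 82.7 and 90.6 CPM in IL10RAKO and at 29.8, 71.7, 47 and 67 CPM in DKO. The knockout libraries did not overlap with the 4 tested WT libraries. TIMP2 was 3.84-fold lower in IL10RAKO (log2 fold change -1.94, SE 0.287, edgeR adjusted p = 0.000356) and 4.81-fold lower in DKO (log2 fold change -2.27, SE 0.291, edgeR adjusted p = 9.31e-05). The knockouts differed by -0.32 on the log2 scale (DKO against IL10RAKO), with an interval of -0.92 to 0.27. WT mouse 11 had 114 CPM, between the tested WT mice and the knockouts, and the CCR2KO mouse had 208 CPM.

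TIMP3, the inhibitor that binds to the extracellular matrix and also blocks ADAM17, had the largest fold changes of the 10 genes. It was at 47.7, 23.2, 97 and 65.9 CPM in WT. It was at 4.59, 1.25, 6.62 and 3.43 CPM in IL10RAKO, from 20 to 131 reads per library, and at 7.12, 4.67, 2.04 and 5.64 CPM in DKO. No knockout library reached the lowest WT library. TIMP3 was 14.6-fold lower in IL10RAKO (log2 fold change -3.87, SE 0.528, edgeR adjusted p = 0.00019) and 11.9-fold lower in DKO (log2 fold change -3.58, SE 0.519, edgeR adjusted p = 0.00026). WT mouse 11 had 20.4 CPM and the CCR2KO mouse 24.5 CPM, both near the lowest tested WT mouse. TIMP1, an inhibitor often induced by inflammatory signals, was the least abundant of the 10 genes in WT, at 1.35 to 4.34 CPM, and it was at 1.16 to 3.36 CPM in IL10RAKO and 0.934 to 2.39 CPM in DKO. With 15 to 91 reads per tested library, the interval of its log2 fold change reached from -1.09 to 1.12 in IL10RAKO and from -1.57 to 0.66 in DKO.

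MMP9 and MMP2 are the gelatinases, which cut denatured collagen and basement membrane collagen. MMP9 was at 56.8, 27.3, 36.4 and 30.4 CPM in WT, at 9.26, 7.35, 15.1 and 10.6 CPM in IL10RAKO, and at 7.12, 29.3, 25.2 and 16.2 CPM in DKO. All 4 IL10RAKO libraries were below the WT libraries, and DKO mouse 9 reached into the WT range. MMP9 was 3.57-fold lower in IL10RAKO (log2 fold change -1.84, SE 0.382, edgeR adjusted p = 0.00442). In DKO the log2 fold change was -0.96 (SE 0.372) with an edgeR adjusted p of 0.0895, and with library totals in place of TMM it was -1.21 with an adjusted p of 0.0319. MMP9 had 0 reads in WT mouse 11, whereas the CCR2KO mouse had 2012 reads (99.3 CPM), more than any WT mouse. With WT mouse 11 in the fit, the log2 fold change in IL10RAKO was -1.51 and the adjusted p was 0.299, so that the call was lost. WT mouse 11 had reads for 11670 genes, against 13485 to 15450 in the tested libraries. TIMP1, MMP8 and MMP25 also had 0 reads in that library. The values of neutrophil markers stand with MMP8, and the part of neutrophil RNA in the MMP9 levels was not tested.

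MMP2 did not pass in any comparison. It was at 35.7, 84.4, 84.2 and 82.4 CPM in WT, at 27.2, 23.4, 53.2 and 73.5 CPM in IL10RAKO and at 29, 77.5, 69 and 74.8 CPM in DKO. WT mouse 4 and DKO mouse 3 were each far below the other 3 mice of their genotype. The log2 fold change was -0.69 in IL10RAKO (interval -1.53 to 0.15) and -0.19 in DKO (interval -1.03 to 0.64).

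ADAMDEC1, a secreted protease related to the ADAM family and described in both macrophages and fibroblasts of the gut, passed narrowly in IL10RAKO. It was at 117, 181, 97.1 and 175 CPM in WT, at 73.8, 33.6, 102 and 69.6 CPM in IL10RAKO and at 69.3, 120, 119 and 142 CPM in DKO. IL10RAKO mouse 7 overlapped with the lowest WT mouse, and 3 of the 4 DKO mice lay within the WT range. ADAMDEC1 was 2.04-fold lower in IL10RAKO (log2 fold change -1.03, SE 0.312, edgeR adjusted p = 0.0374), and the log2 fold change in DKO was -0.34 (interval -1 to 0.32). The call in IL10RAKO was lost when WT mouse 5 (adjusted p = 0.101), WT mouse 13 (0.0984), IL10RAKO mouse 1 (0.0788), IL10RAKO mouse 2 (0.0849), IL10RAKO mouse 8 (0.0894), DKO mouse 9 (0.0535) or DKO mouse 12 (0.052) was left out, and when WT mouse 11 was added (0.0778). The CCR2KO mouse had 221 CPM, above all WT mice.

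MMP13 and MMP19 did not pass in any comparison. MMP13, a collagenase, was at 94.2 to 340 CPM in WT, 79.1 to 276 CPM in IL10RAKO and 126 to 167 CPM in DKO, and the genotypes overlapped throughout. Its log2 fold change was -0.43 in IL10RAKO (interval -1.22 to 0.37) and -0.59 in DKO (interval -1.39 to 0.20). MMP19, which cuts basement membrane proteins, was at 36.4 to 63.9 CPM in WT, 29.9 to 89.5 CPM in IL10RAKO and 41.2 to 72.9 CPM in DKO. Its log2 fold change was 0.23 in IL10RAKO (interval -0.42 to 0.87) and 0.16 in DKO (interval -0.48 to 0.81), and both were -0.09 with library totals. The exons of MMP19 share 789 bases with those of Tmem198b on the other strand, and reads of the 2 genes cannot be told apart there unless the counting used strand, which is not given in the sources used here. Tmem198b had 51 to 959 reads per library over all 14 libraries, against 235 to 1437 for MMP19. TIMP3 shares 1733 exonic bases with Syn3 in the same way, and Syn3 had at most 35 reads in any library.

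**Figure D2:**
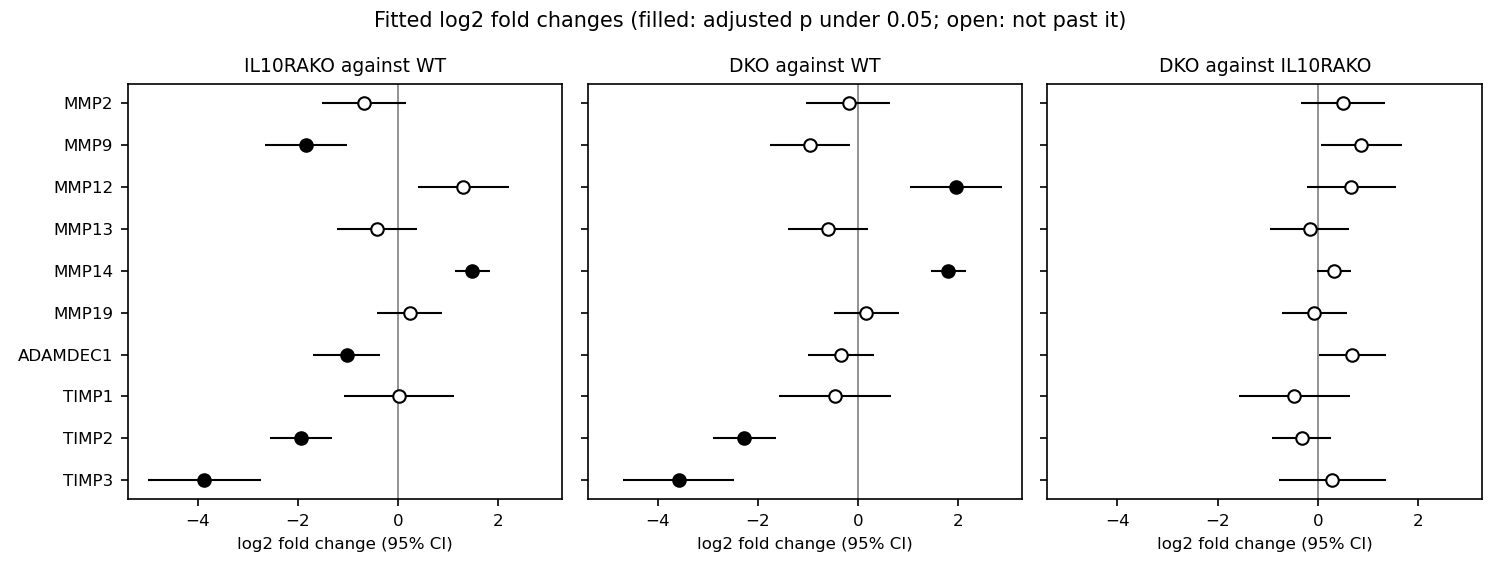
Fitted log2 fold changes of the 10 genes with 95% confidence intervals (edgeR, 4 mice per genotype) in the 3 comparisons. Filled circles passed at an adjusted p under 0.05 and open circles did not; against WT, TIMP3 had the largest change (-3.87 in IL10RAKO and -3.58 in DKO), and no circle is filled between DKO and IL10RAKO.

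Between DKO and IL10RAKO, the comparison that asks what the loss of CCR2 adds in mice without the interleukin-10 receptor, none of the 10 genes passed in edgeR or in DESeq2. At an unadjusted p under 0.05 there were 2 of the 10 genes, and 388 of all 13136 tested genes (2.95%). The 2 were MMP9, with a log2 fold change of 0.87 (interval 0.07 to 1.68, unadjusted p = 0.0354 in edgeR), and ADAMDEC1, with 0.69 (interval 0.03 to 1.36, unadjusted p = 0.0426 in edgeR). For MMP9 and ADAMDEC1, this comparison is the test of whether the change from WT differed between the knockouts, and it did not pass after adjustment. The widest interval was that of TIMP1, from -1.58 to 0.65, and the narrowest that of MMP14.

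The order of the genes by level per kilobase of exon differed between WT and the knockouts. Levels were divided by the merged length of all annotated exons, which was 7237 bases for MMP12, 5960 for MMP14 and 2673 for MMP13. The order between genes depends on this length, which can exceed that of the transcript in use. In WT, MMP13 had 80.2 ± 39.7 CPM per kb (SD, n = 4), followed by TIMP2 with 66.5 ± 11.8, ADAMDEC1 with 58.4 ± 17.1 and MMP14 with 46.6 ± 3.54, and the ranges of neighbours in this order overlapped. MMP12 followed at 23.0 ± 10.5 CPM per kb, and its highest mouse was below the lowest value of MMP14. In IL10RAKO, MMP14 came first with 130 ± 19.8 CPM per kb and did not overlap with MMP13, the next gene, at 59.6 ± 31.3. In DKO, MMP14 had 162 ± 27.1 CPM per kb, above MMP12 with 89.4 ± 22.3, again with no overlap. TIMP2 was at rank 5 in IL10RAKO (17.3 ± 5.76 CPM per kb) and at rank 7 in DKO (13.8 ± 4.95), and overlapped there with the genes next to it. TIMP3 was last in both knockouts, at 0.488 ± 0.275 and 0.598 ± 0.262 CPM per kb, below TIMP1, whereas in WT it was at 7.18 ± 3.82 CPM per kb and overlapped with TIMP1.

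**Figure D3:**
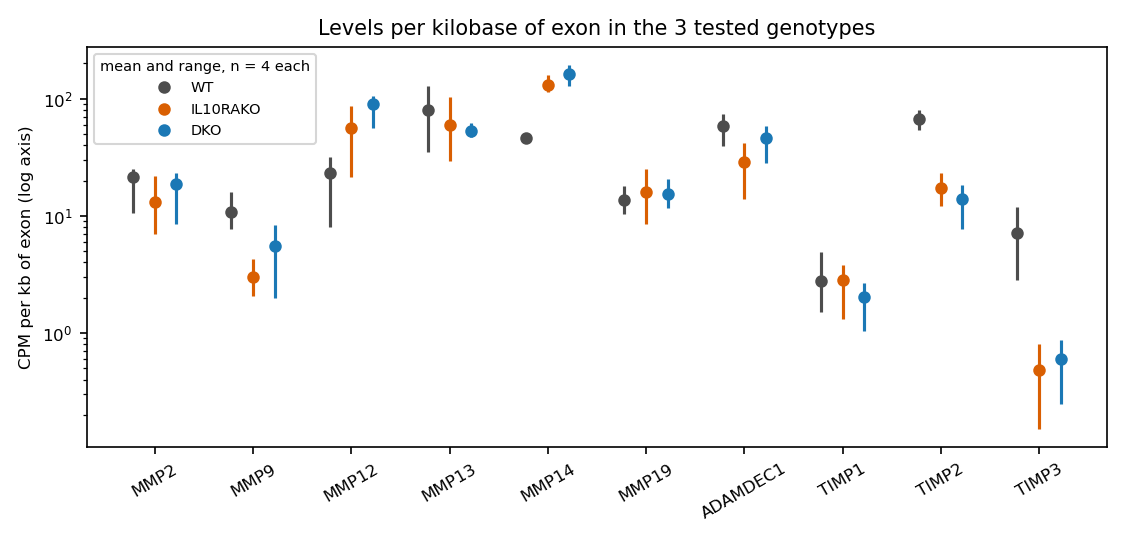
Mean CPM per kilobase of exon (points, log axis) and range over 4 mice (lines) of the 10 genes in WT, IL10RAKO and DKO. The length is that of all annotated exons merged, on which the order between genes depends. MMP14 has the highest level in both knockouts (130 and 162 CPM per kb) and TIMP3 the lowest (0.488 and 0.598 CPM per kb), while in WT MMP13, TIMP2, ADAMDEC1 and MMP14 lie together at the top.

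Ratios of reads within a library do not depend on how libraries are scaled. In WT mice 4, 5, 10 and 13 there were 1.38, 1.13, 1.07 and 0.814 MMP14 reads per TIMP2 read. There were 15.4, 14.3, 8.8 and 10.4 in IL10RAKO, and 25.5, 14.1, 20 and 17.2 in DKO. The CCR2KO mouse had 1.3, within the WT range, and WT mouse 11 had 3.6, above the tested WT mice and below every knockout mouse. For MMP12 the same ratio ranged over 0.272 to 0.739 for the 4 tested WT mice, 3.14 to 10.8 for IL10RAKO mice and 6.1 to 23.7 for DKO mice, with 1.13 for WT mouse 11. MMP2 reads per TIMP2 read ranged over 0.168 to 0.363 for the 4 tested WT mice, 0.496 to 0.811 for IL10RAKO mice and 0.974 to 1.47 for DKO mice, with 0.852 for WT mouse 11. These ratios combine genes already described and are given as a description.

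The inhibitors, ADAMDEC1 and MMP14 were also set against the fibroblast markers of the same library, as reads of the gene per 100 reads of the 10 markers. TIMP1 had 0.21 to 1.28 reads per 100 for the 4 tested WT mice, 4.75 to 16 for IL10RAKO mice and 2.25 to 12 for DKO mice. TIMP3 had 14.1, 3.6, 28.6 and 10.6 reads per 100 fibroblast marker reads in WT, 7.84, 5.36, 27.9 and 20.2 in IL10RAKO and 37, 26.5, 6.22 and 8 in DKO, and the 3 genotypes overlapped. In WT mice 4, 5, 10 and 13 the fibroblast sum was 339, 643, 339 and 621 CPM, and TIMP3 was at 47.7, 23.2, 97 and 65.9 CPM. Endothelial markers summed to 37.7, 27.3, 148 and 154 CPM in these mice, 13.1 to 25.1 CPM in IL10RAKO and 22.7 to 34.9 CPM in DKO. The part of endothelial RNA in the TIMP3 levels was not tested. TIMP2 had 36.2 to 81.9 reads per 100 for the 4 tested WT mice, 84.1 to 534 for IL10RAKO mice and 95.2 to 407 for DKO mice, and every knockout library was above every tested WT library, with 36.3 for WT mouse 11 and 28.3 for the CCR2KO mouse. ADAMDEC1 had 34.6, 28.1, 28.6 and 28.2 reads per 100 in the 4 WT mice, a spread of 1.23-fold while the marker sum itself ranged from 339 to 643 CPM. The CCR2KO mouse, with a marker sum of 734 CPM, had 30.2, and WT mouse 11, with 314 CPM, had 28.1. In the knockouts ADAMDEC1 had 126 to 431 reads per 100 in IL10RAKO and 202 to 683 in DKO. MMP14 had 41 to 87.9 reads per 100 for the 4 tested WT mice, 1300 to 5560 for IL10RAKO mice and 1640 to 5730 for DKO mice, with 131 for WT mouse 11 and 36.7 for the CCR2KO mouse. The marker sum itself had a mean of 486 CPM in WT, 30.6 CPM in IL10RAKO and 35 CPM in DKO. A ratio therefore rises in the knockouts for any gene that falls less than the markers. MMP9, which was lower in IL10RAKO, had 4.25 to 16.7 reads per 100 in the tested WT mice and 15.8 to 63.5 in IL10RAKO. A higher ratio in the knockouts thus does not tell the source of the RNA.

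**Figure D4:**
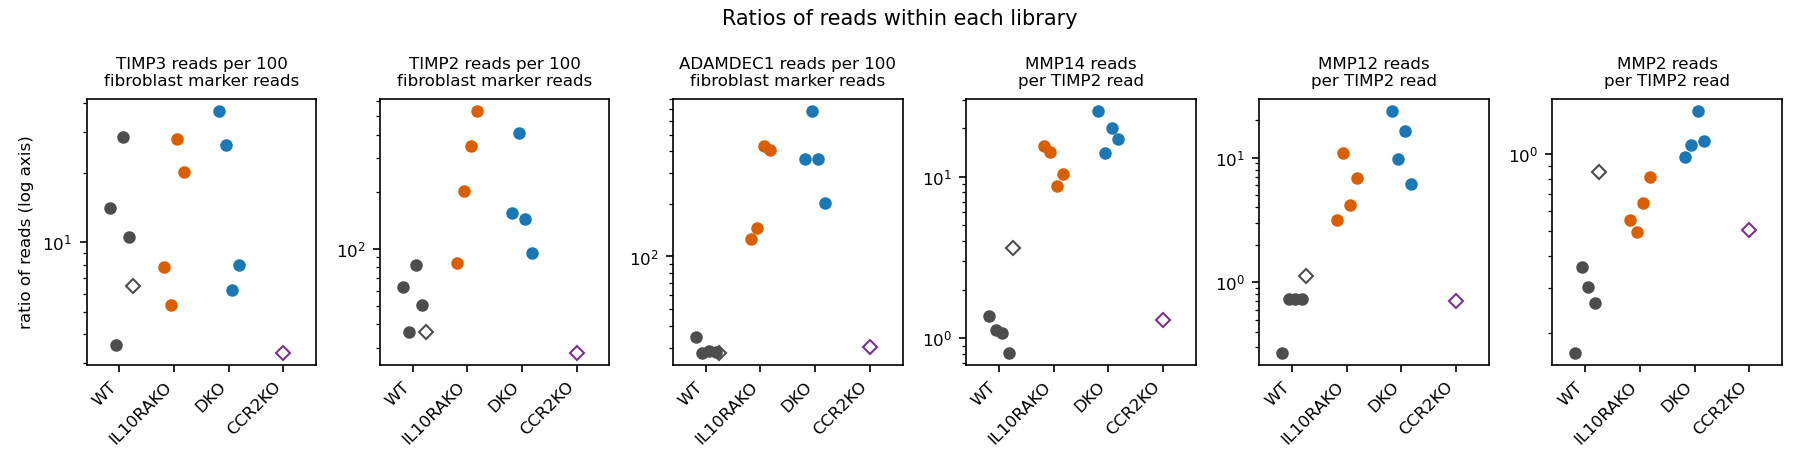
Ratios of reads within each library (log axes), by genotype: TIMP3, TIMP2 and ADAMDEC1 reads per 100 reads of the 10 fibroblast markers, and MMP14, MMP12 and MMP2 reads per TIMP2 read. Filled circles are the tested libraries and open diamonds those outside the tests. The genotypes overlap for TIMP3 (3.6 to 37 over all 12), and the WT libraries lie close together for ADAMDEC1 (28.1 to 34.6). MMP14 per TIMP2 is 0.814 to 1.38 in the tested WT libraries, 3.6 in WT mouse 11 and 8.8 or more in the knockouts.

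With the mean log2 CPM of the fibroblast markers added to the fit as a covariate, none of the 10 genes passed against WT, and the number of all genes that passed fell to 20 in IL10RAKO and 28 in DKO. The markers themselves separate WT from both knockouts, so that the covariate and the genotype cannot be told apart in these libraries. The estimates for MMP14 were 1.51 and 1.83 in IL10RAKO and DKO, those for TIMP2 were -1.88 and -2.21, and those for TIMP3 were -3.61 and -3.31, against 1.48 and 1.80, -1.94 and -2.27, and -3.87 and -3.58 without the covariate. The estimate for MMP12 moved to -0.15 in IL10RAKO and from 1.96 to 0.57 in DKO (adjusted p = 0.996 and 0.976), and that for MMP9 moved to -3.04 and -2.17 (adjusted p = 0.399 and 0.589). The estimate for ADAMDEC1 changed sign, to 0.15 in IL10RAKO and 0.82 in DKO, with adjusted p-values of 0.996 and 0.933. The part of fibroblast RNA in the lower TIMP2, TIMP3 and ADAMDEC1 levels was not tested beyond these values.

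**Figure D5:**
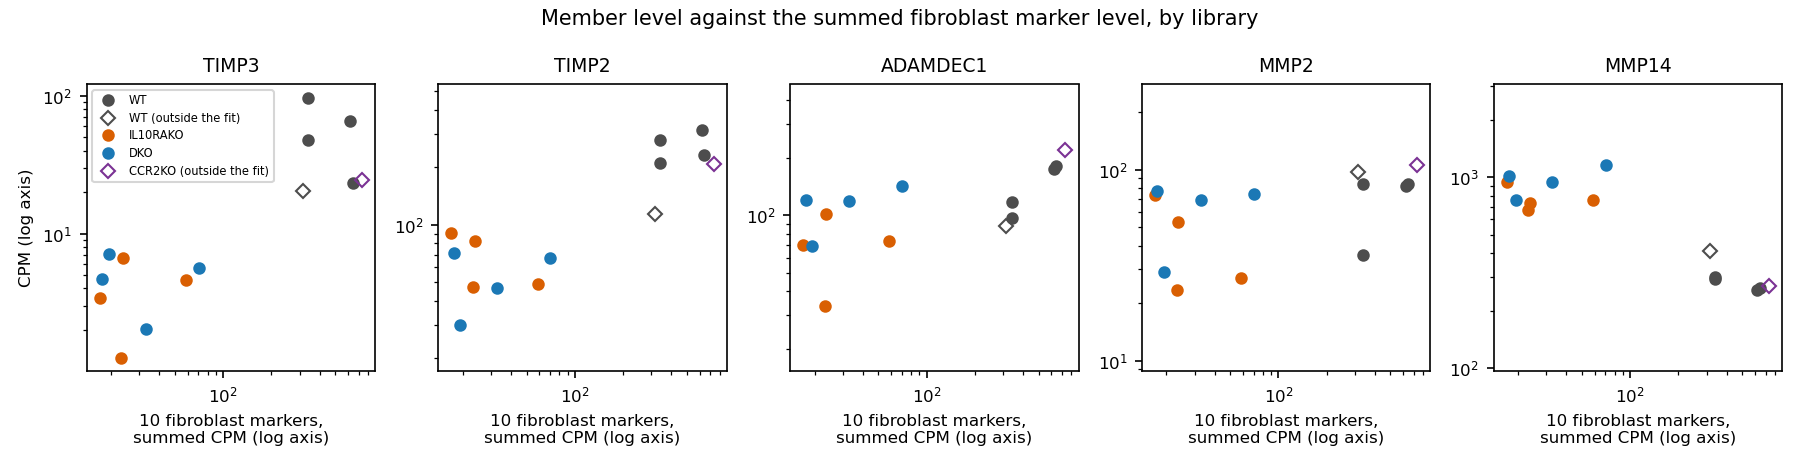
Level of TIMP3, TIMP2, ADAMDEC1, MMP2 and MMP14 (CPM, log axis) against the summed CPM of the 10 fibroblast markers (log axis), 1 point per library, filled for tested libraries and open for those outside the tests. The tested WT libraries lie at 339 to 643 CPM of markers, WT mouse 11 at 314 CPM and the knockouts at 17 to 70.4 CPM. MMP2 and ADAMDEC1 levels of WT and the knockouts overlap. TIMP3 and TIMP2 levels are higher in every WT library than in any knockout library, and MMP14 levels are lower.

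Of the other 17 matrix metalloproteinases, 8 had enough reads to be tested, 2 were higher in each knockout, and 1 was lower in DKO. MMP25, a membrane-anchored protease of leukocytes, was at 0.4 to 7.93 CPM in WT, 39 to 49.3 CPM in IL10RAKO and 44.6 to 53.3 CPM in DKO. Its log2 fold changes were 3.76 (SE 0.629, edgeR adjusted p = 0.000946) and 3.92 (SE 0.633, edgeR adjusted p = 0.000615). MMP8, the neutrophil collagenase, was at 0.938 to 7.26 CPM in WT, 7.99 to 38.2 CPM in IL10RAKO and 22.6 to 53.1 CPM in DKO, with log2 fold changes of 2.71 (edgeR adjusted p = 0.00295) and 3.13 (edgeR adjusted p = 0.00101). The neutrophil marker sum was 1.76 to 7.99 CPM in WT, 5.46 to 101 CPM in IL10RAKO, which overlapped with WT, and 33.3 to 55 CPM in DKO. Of the 9 neutrophil markers 5 were tested, and 3 were higher in IL10RAKO and 4 in DKO. S100A8, S100A9 and CXCR2 were higher in both knockouts, LTF was higher in DKO, and RETNLG passed in neither. S100A8 was at 0 to 0.732 CPM in WT, 0.809 to 42.8 CPM in IL10RAKO and 9.83 to 21.4 CPM in DKO. S100A9 was at 0.506 to 40.8 CPM in IL10RAKO and 8.01 to 16.9 CPM in DKO. S100A9 had 0 reads in all 4 WT libraries, MPO had 0 reads in all WT and IL10RAKO libraries, and LY6G, the antigen gated against, had at most 12 reads in any tested library. The part of neutrophil RNA in the MMP8 and MMP25 levels was not tested. In IL10RAKO mice 1, 2, 7 and 8 the neutrophil sum was 10, 101, 5.46 and 12.1 CPM, MMP8 was at 38.2, 28.7, 7.99 and 34.4 CPM, and MMP25 was at 49.3, 39, 47 and 41.5 CPM. MMP17, another membrane-anchored member, was lower in DKO, where it had 0 to 6 reads per library against 5 to 68 in WT (log2 fold change -4.08, SE 1.14, edgeR adjusted p = 0.0223). Of the other inhibitors, TIMP4, A2M and PZP had too few reads for a test, and RECK, a membrane-anchored inhibitor, did not pass (log2 fold changes -1.56 and -1.08, edgeR adjusted p = 0.268 and 0.433).

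Among 11 genes of the ADAM family, which includes membrane-anchored shedding enzymes, 9 were tested. In IL10RAKO 1 was higher and 3 were lower, and in DKO 3 were higher and 4 were lower. ADAM8, a leukocyte protease, was at 65.9 to 119 CPM in WT, 129 to 266 CPM in IL10RAKO and 173 to 276 CPM in DKO (log2 fold changes 1.10 and 1.39, edgeR adjusted p = 0.00581 and 0.00102). ADAM17, the enzyme that releases TNF and a target of TIMP3, was higher in DKO (log2 fold change 0.62, edgeR adjusted p = 0.0318) together with ADAM9 (0.76, edgeR adjusted p = 0.0143), and had 0.51 with an adjusted p of 0.0824 in IL10RAKO. ADAM15, ADAM19 and ADAM33 were lower in both knockouts, with log2 fold changes of -0.77, -1.86 and -3.46 in IL10RAKO and -0.73, -1.85 and -3.61 in DKO. ADAM33, a gene of mesenchymal cells, was at 2.82 to 7.03 CPM in WT and had 3 to 11 reads in the knockout libraries. ADAM22 was lower in DKO (log2 fold change -2.48, edgeR adjusted p = 0.0329) and had -0.91 with an adjusted p of 0.428 in IL10RAKO, and its difference between the knockouts did not pass.

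Among 19 ADAMTS proteases, secreted enzymes that cut proteoglycans and procollagens, 7 were tested, and 3 were lower in each knockout with none higher. ADAMTS1 had 73 to 1022 reads in WT, 0 to 66 reads in IL10RAKO and 17 to 115 reads in DKO. ADAMTS2, which trims procollagen, had 40 to 198 reads in WT, 0 to 3 reads in IL10RAKO and 4 to 16 reads in DKO. ADAMTS4 was at 3.69 to 13.7 CPM in WT and at most 1.77 CPM in the knockouts. All 3 were lower in the knockouts, where the fibroblast markers were lower, and the part of fibroblast RNA was not tested.

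Plasmin and proprotein convertases activate several metalloproteinases, and of 10 such genes and their regulators 9 were tested, with 1 higher and 1 lower in each knockout. PLAUR, the urokinase receptor, was at 384, 393, 253 and 384 CPM in WT, 1380, 1420, 1100 and 1270 CPM in IL10RAKO and 1170, 1450, 1050 and 1090 CPM in DKO. Its log2 fold changes were 1.87 (SE 0.179, edgeR adjusted p = 8.07e-06) and 1.75 (SE 0.178, edgeR adjusted p = 1.37e-05), of a size like those of MMP14. PCSK6 was at 3.72 to 8.86 CPM in WT and had at most 8 reads in a knockout library. FURIN, the convertase that activates MMP14, did not pass, with log2 fold changes of 0.11 in IL10RAKO (edgeR adjusted p = 0.893) and 0.69 in DKO (edgeR adjusted p = 0.258). PLAU, the ligand of PLAUR, did not pass either, with -0.47 in IL10RAKO (edgeR adjusted p = 0.565) and -1.24 in DKO (edgeR adjusted p = 0.0977).

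The genes whose levels followed each member most closely within genotypes were found over the 12 libraries, as the highest Pearson r of log2 CPM after each genotype's mean was subtracted. They describe 12 points that share libraries and depth, and the best of 13136 genes is high by selection. For TIMP2 they included MOK (r = 0.941) and CD44 (r = 0.929). For TIMP3 they were CX3CL1 (0.911), SLC25A10 (0.882) and GATA2 (0.881). For MMP13 they were RGS1 (0.954), CCL12 (0.926) and FAP (0.919), and for MMP14 CABIN1 (0.943), FYB (0.926) and ACP2 (0.913). For MMP12 the genes were TATDN1 (0.923), GM15880 (0.921) and MIR142B (0.911), and for MMP2 ARSK (0.922), MOK (0.903) and SYNGR1 (0.902). For MMP9 they were SEC24B (0.931), LRSAM1 (0.864) and LPIN1 (0.854), for MMP19 MDM2 (0.932), RABEP1 (0.910) and ZC3H12C (0.900), for TIMP1 TARM1 (0.863), FAM114A1 (0.858) and CITED4 (0.844), and for ADAMDEC1 SLC16A7 (0.925), PLXDC2 (0.887) and GLG1 (0.862). MOK was named for both MMP2 and TIMP2.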

How the data were processed

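RNA of FACS-sorted macrophages was made into cDNA with SmartSeq v4 and sequenced by the authors as paired-end reads. Per the labels, bcl2fastq 2.20, STAR 2.5.1b, edgeR 3.34.0 and mm10 were used. The deposited counts are whole numbers of reads per gene without normalization. The authors also deposited edgeR pseudocounts, a normalized score, for 12 of the 14 libraries, used here in 1 alternative. The annotation, strand setting and treatment of multi-mapped reads are not given in the sources used here.

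Genotypes came from the labels. In R 4.3.3 with edgeR 4.0.16, genes were kept by filterByExpr (minimum count 10), scaled by TMM and fitted over 12 libraries with glmQLFit, with two-sided quasi-likelihood tests, Benjamini-Hochberg adjustment over all genes and 95% intervals. Alternatives used DESeq2 1.42.0, limma 3.58.1 on pseudocounts, other filters, scalings, samples and dispersions, a fibroblast covariate, and each mouse left out. The fit was tested on simulated data. Libraries of a genotype differed beyond counting noise (chi-square per degree of freedom at least 26.1). The floor of 3 reads covers counting error only.

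The 10 genes and the gene and marker lists were chosen with earlier results of these data known. Named are the 10 genes, the targeted genes, list genes that passed (up to 3 per direction and list), defining markers, and the 3 genes most correlated with each of the 10, of which 1 is not reported here. List genes named without a call (RECK, TIMP4, A2M, PZP, FURIN and PLAU) were chosen after their values were seen.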

Additional observations from a re-analysis of the deposited data

Results flagged for a closer look

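In 30 groups of 4 mice (10 genes in 3 genotypes), gaps between mice were taken on the log2 scale, after 1 was added to each CPM. A mouse was marked when its gap to the nearest other mouse, divided by the range, exceeded Dixon's 95% critical ratio. Chance passes that ratio in about 5% of groups. MMP2 was at 35.7 CPM in WT mouse 4, far below the other WT mice (ratio 0.972), and at 29 CPM in DKO mouse 3, far below the other DKO mice (ratio 0.881). MMP12 was at 409 CPM in DKO mouse 14 against 706 to 767 CPM in the other DKO mice (ratio 0.868).

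The CCR2KO library, which entered no test, had levels above all WT mice for 3 genes: MMP2 at 105 CPM, MMP9 at 99.3 CPM and ADAMDEC1 at 221 CPM. Its fibroblast marker sum of 734 CPM was also the highest of all 14 libraries. With 1 mouse, these values have no replicate check.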

How the results depend on the processing

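MMP14, TIMP2 and TIMP3 (both knockouts) and MMP12 (DKO) kept direction and call in 10 of 11 other settings and whenever any of the 12 mice was left out. The exception was the fibroblast covariate, under which the calls among the 10 genes fell to 0 against WT, and those among all genes to 20 in IL10RAKO and 28 in DKO, since covariate and genotype cannot be told apart. It reversed MMP12 (-0.15), MMP19 (-1.09), TIMP1 (-0.86) and ADAMDEC1 (0.15) in IL10RAKO, and MMP19 (-1.12) and ADAMDEC1 (0.82) in DKO. None of these reversed values passed. Library totals reversed MMP19 to -0.09 in both knockouts and TIMP1 to -0.3 in IL10RAKO, and TIMP1 was -0.04 with at least 10 reads required in every library and -0.05 with the bias-adjusted deviance. MMP12 in IL10RAKO passed in 5 other settings, MMP9 in IL10RAKO in 9 of 11 and ADAMDEC1 in IL10RAKO in 8 of 11. Between the knockouts DESeq2 called 24 genes in place of 6, none of them among the 10. The cause was not tested.

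With 1 mouse left out, genes called between the knockouts ranged from 4 to 10, the highest without IL10RAKO mouse 2. Reversed values lay within these ranges, none passing: in IL10RAKO TIMP1 -0.18 to 0.44 and MMP19 -0.07 to 0.45, in DKO MMP2 -0.41 to 0.05 and MMP19 -0.01 to 0.33, and between the knockouts MMP13 -0.39 to 0.26, MMP19 -0.27 to 0.24 and TIMP3 0 to 0.68. No paired analysis was possible because the groups are different mice with no shared numbers. TIMP1 had only 15 to 91 reads per tested library, and p-values measure only the spread among these mice.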
